A study of Homo sapiens with 2 samples.

Results

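The histone genes of the short arm of chromosome 6 were examined for OTX2 peaks. Members were the protein-coding genes of the GENCODE annotation whose record lay between 26 and 28 Mb of chromosome 6 on GRCh38 and whose symbol began with H1-, H2AC, H2BC, H3C or H4C. The rule gave 49 genes among 19881 protein-coding genes with a GRCh38 position. It used name and position only and no measured value. The 49 genes comprised 6 H1, 11 H2A, 12 H2B, 10 H3 and 10 H4 genes, and the remaining 997 protein-coding genes of chromosome 6 served as the background.

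Chromatin immunoprecipitation followed by sequencing (ChIP-seq) was performed on D283 tumorspheres, which are untreated, OTX2-expressing spheres of a human medulloblastoma cell line kept in low-attachment plates with neural proliferation medium. One group was 1 library precipitated with a ChIP grade OTX2 antibody from Abcam, and the other was 1 library of input DNA taken without antibody. The peak list of the first against the second held 137412 peaks, of which 8661 lay on chromosome 6. With 1 library of each kind and 1 cell line there was no replicate, so no difference could be tested over samples, and the intervals below (95% Wilson for shares, exact 95% Poisson for fragments) cover counting error only. A sample with OTX2 removed was not analysed here, so the dependence of a peak on OTX2 protein was not tested.

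OTX2 is a homeodomain transcription factor of the early forebrain, midbrain and cerebellum and is frequently overexpressed or amplified in medulloblastoma. The histone genes of chromosome 6 encode the linker histone H1 and the core histones H2A, H2B, H3 and H4, around which DNA is wrapped in nucleosomes. Most are replication-dependent: short, intronless genes that are transcribed during DNA replication and whose mRNAs end in a stem-loop in place of a poly(A) tail. They lie in clusters, often as H2A and H2B genes that face away from each other and share the DNA between their starts.

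Promoter sequences from the RefSeq promoter table (GRCh38.p14) are shown for 6 members or pairs that differ in their OTX2 peaks. Capitals mark every match, on either strand, to the OTX2 motifs TAATCC and TAATCT that the study used, to the CCAAT box, to TATAAA (the TATA box) and to the octamer ATTTGCAT, and matches may overlap each other. Each sequence runs 5′ to 3′ on the gene's strand and ends with the base before the annotated start. H3C2 (chr6:26032100-26032349, minus strand), H2BC5 (chr6:26157871-26158120, plus strand) and H4C9 (chr6:27139032-27139281, plus strand) are shown because an OTX2 motif match lay close to the summit of their peak:
H3C2: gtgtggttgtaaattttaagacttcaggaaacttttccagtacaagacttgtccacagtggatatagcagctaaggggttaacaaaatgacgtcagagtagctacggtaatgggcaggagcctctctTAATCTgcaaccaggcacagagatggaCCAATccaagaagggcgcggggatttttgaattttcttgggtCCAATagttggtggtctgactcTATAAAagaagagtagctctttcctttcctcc
H2BC5: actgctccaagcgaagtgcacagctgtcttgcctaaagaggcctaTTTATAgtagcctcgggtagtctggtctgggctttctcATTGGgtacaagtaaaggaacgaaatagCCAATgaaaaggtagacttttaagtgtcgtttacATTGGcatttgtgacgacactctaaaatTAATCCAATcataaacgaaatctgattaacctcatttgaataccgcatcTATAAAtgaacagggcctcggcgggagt
H4C9: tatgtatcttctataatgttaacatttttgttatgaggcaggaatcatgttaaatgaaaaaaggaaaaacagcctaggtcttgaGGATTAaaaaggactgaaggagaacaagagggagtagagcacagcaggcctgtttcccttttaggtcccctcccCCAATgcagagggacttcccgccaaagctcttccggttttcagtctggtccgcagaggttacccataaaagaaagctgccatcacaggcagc
The DNA between the RefSeq starts of H2BC4 and H2AC6 (chr6:26123927-26124171, plus strand) is shown as an example of a shared H2A-H2B promoter that held the summit of a peak without a match to either OTX2 motif:
H2AC6: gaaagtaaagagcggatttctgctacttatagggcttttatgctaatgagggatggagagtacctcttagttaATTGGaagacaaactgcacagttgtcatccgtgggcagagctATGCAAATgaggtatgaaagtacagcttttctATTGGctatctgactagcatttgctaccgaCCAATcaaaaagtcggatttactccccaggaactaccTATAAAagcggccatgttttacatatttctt
H1-6 (chr6:26108136-26108385, minus strand) and H3C8 (chr6:26271414-26271663, minus strand) had no peak within 1 kb, the first with and the second without an OTX2 motif match:
H1-6: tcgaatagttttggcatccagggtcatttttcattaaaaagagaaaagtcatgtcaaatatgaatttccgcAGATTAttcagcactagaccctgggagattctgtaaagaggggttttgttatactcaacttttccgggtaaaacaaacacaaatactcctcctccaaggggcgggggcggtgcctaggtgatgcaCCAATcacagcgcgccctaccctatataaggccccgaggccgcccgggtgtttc
H3C8: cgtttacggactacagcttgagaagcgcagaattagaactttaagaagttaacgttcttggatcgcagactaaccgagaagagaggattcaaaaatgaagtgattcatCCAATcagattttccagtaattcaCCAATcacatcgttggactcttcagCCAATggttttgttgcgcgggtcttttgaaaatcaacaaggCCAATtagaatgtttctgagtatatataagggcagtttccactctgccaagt

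A peak overlapped the 1 kb on either side of the transcription start site (TSS) of 36 of 49 histone genes (73.5%, interval 59.7 to 83.8). The background was 523 of 997 other genes of chromosome 6 (52.5%, interval 49.4 to 55.5) and 9293 of 19832 genes of the rest of the genome (46.9%). A peak of at least 10-fold enrichment over input, the ratio at the summit that the peak caller gave, was found at 13 of 49 histone genes (26.5%) against 8.12% of the other chromosome 6 genes. Neighbouring genes with the same peak, such as H3C2 and H2AC4, were each counted, here and in the intervals, so the genes are not independent. The strongest peak at a histone gene had a median enrichment of 7.95-fold (quartiles 7.55 and 10.6) and the strongest at another chromosome 6 gene one of 5.51-fold (4.31 and 8.28). At the summits stood a median of 71 ChIP fragments (58 to 95) at histone genes and 47 (34 to 67) at the other genes, while the local input level was close to equal, with medians of 5.08 and 4.91.

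The peaks at histone genes also covered the start itself. All 36 genes with a peak in the window had the TSS under a peak, so the share stayed 73.5%. Among the 997 other genes 331 (33.2%) had the TSS under a peak. This share was 67% (63 of 94) at other chromosome 6 genes in head-to-head pairs (facing away from each other, starts within 1 kb). At the 17 other protein-coding genes of the interval it was 58.8%. Median peak length was 1300 bp at histone genes and 599 bp at the other genes. At least 2 peaks in the window were found at 17 histone genes (34.7%), against 11.0% of the others. The share with at least 2 peaks was 23.4% at the other head-to-head genes and 5.88% at the other genes of the interval. The median distance from the TSS to the summit of the strongest peak was 164 bp at histone genes and 258 bp at the others. Of the 36 strongest summits 22 lay upstream, a share similar to that at the other genes (307 of 523). Median gene length was 496 bp for histone genes and 26948 bp for the others, so that 1 window usually spanned a whole histone gene and often the start of its neighbour.

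**Figure D1:**
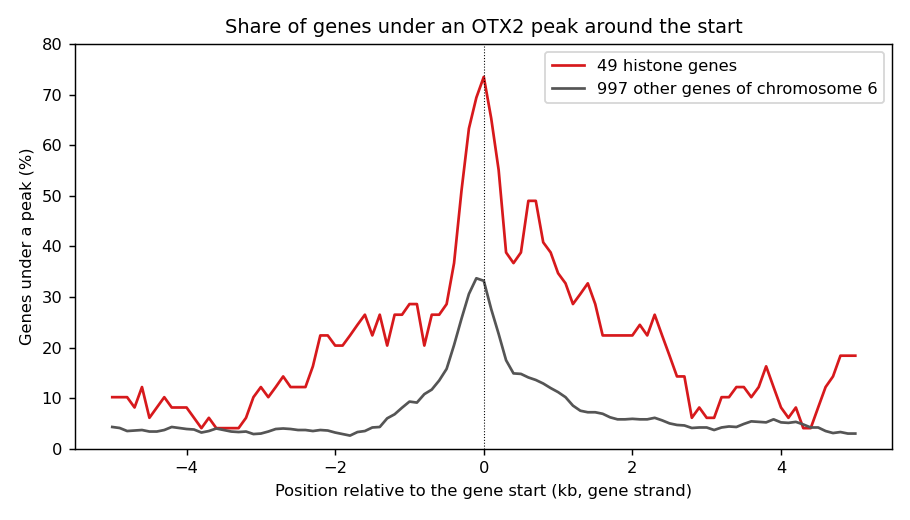
Share of genes (%, y axis) whose position at each distance from the TSS (kb on the gene's strand, x axis, in steps of 100 bp) lay under an OTX2 peak. Histone genes (red) reached 73.5% at the TSS and were at 28.6% 1 kb upstream, against 33.2% and 9.33% for the 997 other genes of chromosome 6 (grey).

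The share of members with a peak ran from 40% in the H3 family to 100% in the H2A family. All 11 H2A genes did (H2AC4, H2AC6, H2AC7, H2AC8, H2AC11, H2AC12, H2AC13, H2AC14, H2AC15, H2AC16 and H2AC17), with folds from 4.36 to 20.1. Of 12 H2B genes 9 did (H2BC4, H2BC5, H2BC6, H2BC11, H2BC12, H2BC13, H2BC14, H2BC15 and H2BC17), and H2BC3, H2BC9 and H2BC10 did not. Among the H4 genes 8 of 10 had a peak (H4C3, H4C4, H4C5, H4C8, H4C9, H4C11, H4C12 and H4C13) and H4C1 and H4C7 had none. Only 4 of 10 H3 genes had one (H3C2, H3C10, H3C11 and H3C12), and H3C1, H3C3, H3C4, H3C6, H3C7 and H3C8 were without. The H3C12 start is the 5′ end of a 2792-bp record and lies within H2AC17, on the same strand. The count for H3C12 therefore rests on the annotation used. Of the 6 linker histone genes 4 had a peak. Genes with a peak had similar median folds in every family, from 7.75 in H4 to 9.27 in H1, and the folds of the families overlapped.

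**Figure D2:**
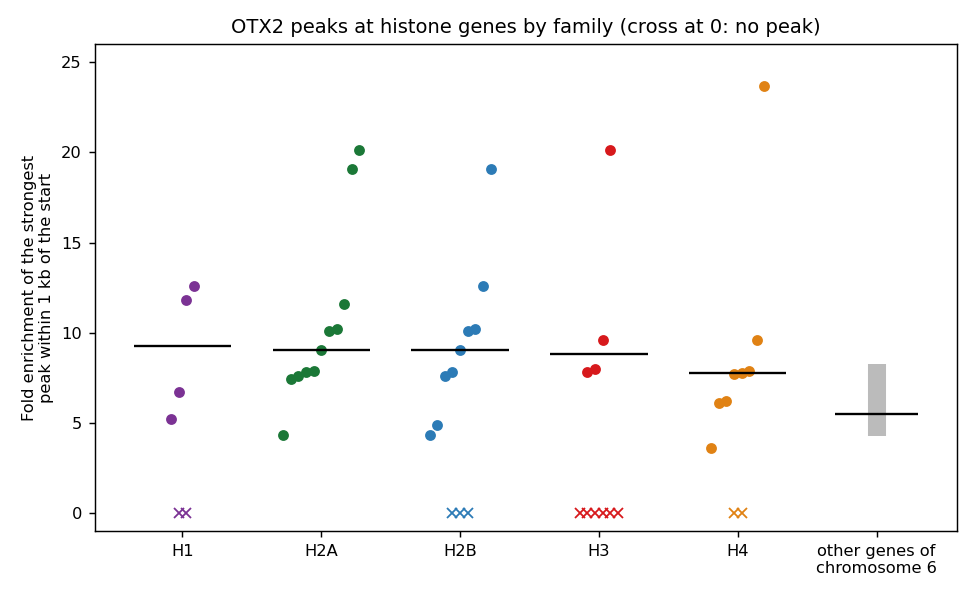
Fold enrichment over input of the strongest peak within 1 kb of the TSS (y axis) for each histone gene, by family. Points are genes, lines are medians of the genes with a peak, crosses at 0 are genes without a peak, and the grey bar spans the quartiles of the other chromosome 6 genes with a peak (4.31 to 8.28, median 5.51). The highest point is H4C3 at 23.7.

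Members with and without a peak were unevenly spread along the chromosome. They fell into 3 blocks separated by more than 100 kb. The first block, from H1-1 to H4C8 (271 kb), held 28 members, of which 15 had a peak (53.6%). This was close to the 52.5% of the other chromosome 6 genes. All 5 members of the second, from H2BC11 to H2AC12 (23.7 kb), and all 16 of the third, from H2BC13 to H2BC17 (88.4 kb), had one. The 13 members without a peak therefore all lay in the first block. All 3 members of the H3 family outside the first block (H3C10, H3C11 and H3C12) had a peak, against 1 of 7 within it. H3C12 was counted by its start within H2AC17. Within the first block the other families had a peak at 14 of 21 members (66.7%), including all 4 H2A genes. Summits within the blocks numbered 118, 254 and 260 per Mb, in that order.

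**Figure D3:**
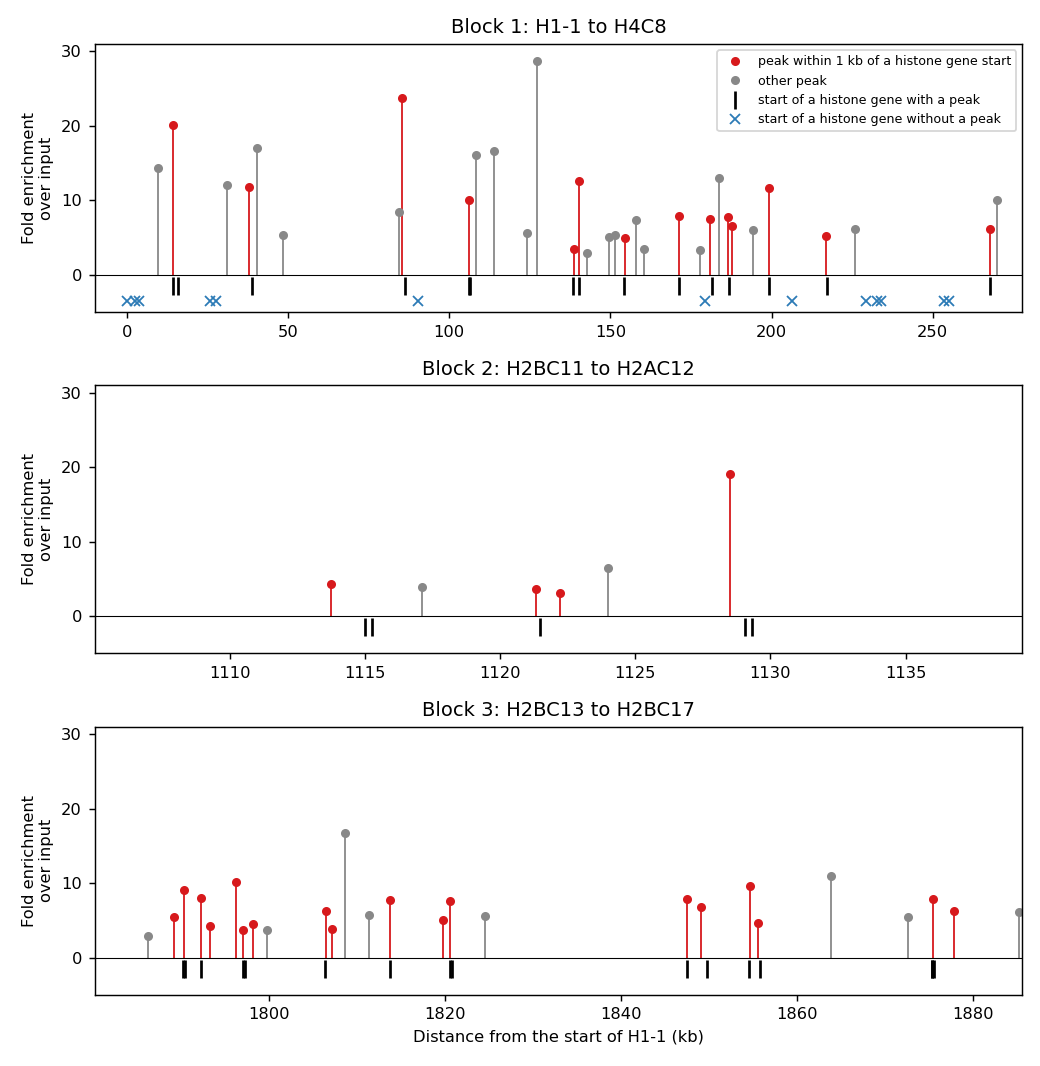
OTX2 peaks in the 3 blocks of histone genes, by distance of the summit from the start of H1-1 (kb, x axis) and fold enrichment over input (y axis). Red stems are peaks within 1 kb of the TSS of a member, and grey stems are other peaks. The grey ones include the 14.4-fold peak at H4C2, a histone gene that is no member. Black ticks are starts of members with a peak. Blue crosses are starts of members without, which are 13 in the first block and none in the others.

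The strongest peak at a histone gene belonged to H4C3, 1 of the genes that encode the same H4 protein. It spanned chr6:26102790-26104629, with 219 fragments at the summit (interval 191 to 250), 23.7-fold enrichment and a −log10 q of 164. Its summit lay 774 bp upstream of H4C3, within an intron of the long annotated record of H2BC4, while the peak itself covered the H4C3 start. This fold exceeded that of 96% of all peaks in the list.

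H3C2, an H3 gene, and its neighbour H2AC4 shared the next peak. This peak (chr6:26031194-26033951, 2758 bp) reached 20.1-fold with 163 fragments (139 to 190) and a −log10 q of 114, and covered both starts. The summit stood 143 bp upstream of H3C2 and 1376 bp downstream of the start of H2AC4, past the end of that gene. In the H3C2 promoter printed above, the TAATCT match centred 23 bp from this summit.

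H2BC12 and H2AC12, a pair facing away from each other, shared a peak of 19.1-fold with 128 fragments (107 to 152) and a −log10 q of 89.7 (chr6:27146058-27147547). Its summit was not in the 251 bp between the starts but 549 bp downstream of the H2BC12 start, just past the end of that 495-bp gene. These 5 members had the highest folds, and they were carried by 3 peaks.

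At the other end, the strongest peak of H4C9 had the lowest fold among the strongest peaks of the members, with 33 fragments (22.7 to 46.3), 3.61-fold enrichment and a −log10 q of 6.31, and its summit lay 156 bp upstream. H2BC11 and H2AC11 shared a peak of 4.36-fold with 58 fragments (44 to 75) and a −log10 q of 13.4. Its summit was 1265 bp downstream of the H2BC11 start and 1513 bp upstream of H2AC11. The local input there was 9, the highest at the strongest peak of any member, so that 58 fragments gave a lower ratio here than 57 fragments did at H4C4, where the input was 4.45 and the fold 7.88.

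H2BC6 had a peak of 4.88-fold with 32 fragments (21.9 to 45.2) and a −log10 q of 8.94, 174 bp downstream of its GENCODE start. That start belongs to a long record, and the RefSeq start of H2BC6 lies 11702 bp away with no peak within 1 kb, the nearest being 4552 bp off. The count for H2BC6 therefore rests on the annotation used.

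The linker histones H1-1 to H1-5 bind the DNA that enters and leaves the nucleosome. H1-4 had 2 peaks, a weak one over its start (3.46-fold, 26 fragments) and one of 12.6-fold (103 fragments, −log10 q 57.1) that it shared with H2BC5 and whose summit lay 36 bp upstream of H2BC5 and 1757 bp downstream of the H1-4 start. The stronger peak therefore centred on the H2B gene next to it. H1-2 had a peak of 11.8-fold (79 fragments, 62.5 to 98.5) whose summit lay 684 bp into the gene, in its untranslated 3′ part.

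H1-5 and H1-3 had lower enrichment. H1-5 had a peak of 6.73-fold (81 fragments) with the summit in its coding sequence, 668 bp from the start. H1-3 had one of 5.21-fold (34 fragments, 23.5 to 47.5) with the summit in its coding sequence, 201 bp downstream of the start. H1-1 had no peak nearer than 8.32 kb. H1-6, the testis linker histone gene, had none within 1 kb and its nearest peak, the one at H4C3, was 3.51 kb away. The testis-specific pair H2AC1 and H2BC1, which lies on chromosome 6 outside the interval, had none within 1 kb either.

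Head-to-head pairs among the 49 members, with the minus-strand gene on the left and starts within 1 kb, numbered 9. H2BC17 was in 2 of them, with H2AC17 and with H3C12, whose start lies within H2AC17. At 8 of the 9, both genes had the same strongest peak. Starts in these 8 pairs were 170 to 319 bp apart. The ninth, H3C7 and H2BC9, had starts 979 bp apart and no peak.

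The summit fell between the starts at H2BC4/H2AC6 (10.1-fold, 95 fragments, −log10 q 45.6), 118 bp from the H2B and 101 bp from the H2A start. It also did at H2BC13/H2AC13 (9.05-fold, 60 fragments, −log10 q 28.4), 151 and 93 bp from the starts. In the pair H2AC15/H2BC15 (7.59-fold, 71 fragments, −log10 q 28.5), which had the shortest gap, the summit was 18 bp from the H2A start. One further peak between starts (7.85-fold, 84 fragments, −log10 q 33.6) served H2AC17, H3C12 and H2BC17, and was 92 bp from H2AC17, 171 bp from H3C12 and 148 bp from H2BC17.

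H2AC14/H2BC14 departed from this. The pair had 3 peaks, and the strongest (10.2-fold, 68 fragments, −log10 q 33.6) had its summit 718 bp downstream of the H2AC14 start, past the end of the gene. The peak over both genes' shared DNA reached 3.7-fold with 49 fragments over a local input of 9. H2BC12/H2AC12 and H2BC11/H2AC11 were the other pairs with the summit outside the gap.

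Of the 17 genes in head-to-head pairs 15 had a peak (88.2%, interval 65.7 to 96.7), and of the other 32 members 21 did (65.6%, 48.3 to 79.6). Those 32 include H2AC7 and H2AC8, both with a peak, whose head-to-head partners H2BC7 and H2BC8 had no GRCh38 record in the annotation. The other chromosome 6 genes in such pairs had a peak at 85 of 94 (90.4%), so the share of paired histone genes was close to that of paired genes in general. Their median fold was 9.05 against 5.93 for the other paired genes. Other chromosome 6 genes whose record was a single exon had a peak at 12 of 43 (27.9%).

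The remaining members with a peak ranged from 6.1-fold to 11.6-fold. H2AC8 had the longest peak at any member, 3155 bp with 141 fragments (119 to 166) and 11.6-fold enrichment, over a local input of 8. H3C11 and H4C13 shared a peak of 9.6-fold (85 fragments), with the summit 117 bp upstream of H3C11. Several genes lay close together in fold, namely H3C10 at 8.02, H4C4 at 7.88, H2AC16 at 7.87, H4C12 at 7.78 and H4C5 at 7.72, each with 51 to 61 fragments, so their Poisson intervals overlapped. H2AC7 followed at 7.43, H4C11 at 6.24 and H4C8 at 6.1.

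Members without a peak differed in how far they were from one. H3C8 and H2BC10, neighbours near the end of the first block, were farthest, at 13.4 and 11.9 kb, followed by H1-1 at 8.32 kb. H2BC9 was 7.5 kb, H3C7 6.52 kb, H3C6 5.74 kb, H3C1 5.66 kb, H2BC3 4.85 kb and H4C1 4.46 kb from the nearest peak. H3C4 was just outside the window, 1147 bp from the peak at H2AC7, and H4C7 and H3C3 were 2880 and 3182 bp from one. A RefSeq start of H3C4, 2007 bp upstream of the GENCODE one, lay under the H2AC7 peak.

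The annotation used held no GRCh38 record for 4 further histone genes of the interval that are in the RefSeq promoter table, and they are not among the 49. H4C2 had a peak of 14.4-fold with 119 fragments 172 bp upstream of its start, which was also the nearest peak to H1-1, H3C1 and H4C1. H2BC8 shared the 11.6-fold peak of H2AC8, from which it faces away, and H2BC7 the 7.43-fold peak of H2AC7. H4C6 had none within 1 kb. Counted at RefSeq starts, 35 of 48 histone genes had a peak (72.9%).

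Where the summits fell was read from the annotation. Of the 36 distinct peaks within 1 kb of a member start, 24 had the summit outside every member gene, 6 in the coding sequence of a member, 4 in an untranslated part of an exon and 2 in an intron of a long record. Those in coding sequence were at H1-3, H1-4, H1-5, H4C8, H4C11 and H4C13.

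Promoter sequence was compared for the 48 histone genes in the RefSeq table, over 300 bases from 250 before to 50 after 1 start per gene, with 15794 promoters of other protein-coding genes. Of the 48, 34 had a peak within 1 kb of that start. TAATCC was found in 5 (10.4%, against 5.33% of the other promoters) and TAATCT in 7 (14.6% against 5.75%). Either motif was in 12 (25% against 10.5%). It was in 8 of the 34 promoters of genes with a peak (23.5%) and in 4 of the 14 without (28.6%), so a match in this window was not more frequent at genes with a peak. Median GC content was 42.3% at histone promoters and 62.7% at the others, and the part of base composition in the motif shares was not tested.

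Matches lay close to the summit at some members. The match centred 4 bp from the summit at H4C2, 8 bp at H4C9, 23 bp at H3C2, 40 bp at H2BC5 and 91 bp at H4C5. At H1-3, H4C8 and H2AC4 it was under the peak but 179, 357 and 1498 bp from the summit. The folds at the closest matches ran from 3.61 at H4C9 to 20.1 at H3C2. H1-6, H2BC6 (at its RefSeq start), H3C6 and H3C7 held a match with no peak over it.

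The general promoter elements were common with and without a peak. CCAAT, which the factor NF-Y binds, was in 41 of 48 histone promoters (85.4% against 35.9% of the others), that is in 28 of 34 with a peak and 13 of 14 without. TATAAA was in 32 (66.7% against 9.74%), or 24 with a peak and 8 without. The octamer ATTTGCAT, which OCT1 binds, was in 19 (39.6% against 1.61%), in 8 of 10 H2A and 11 of 14 H2B promoters and in no promoter of the other families. It was in 15 of the 34 with a peak and 4 of the 14 without. Head-to-head genes share the DNA between their starts, so these promoters are not independent of each other.

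**Figure D4:**
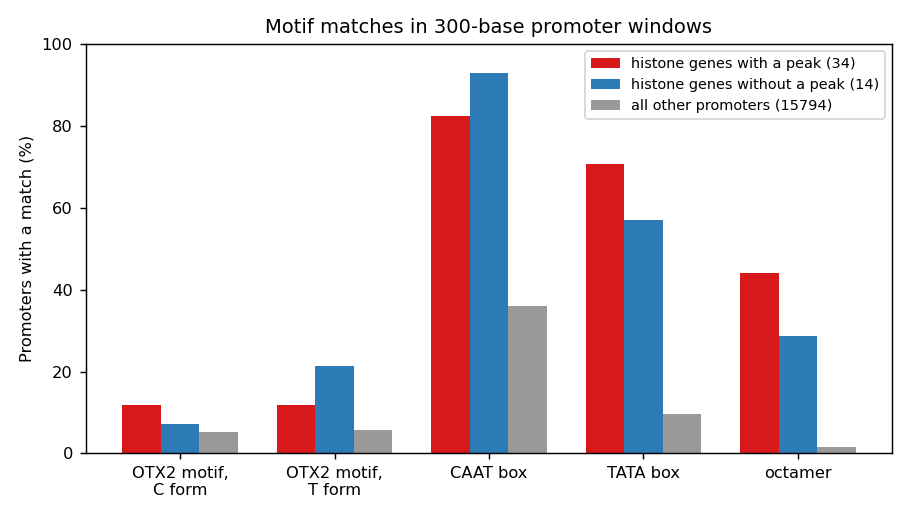
Share of promoters (%, y axis) with at least 1 match to each motif (x axis) on either strand of the 300-base window, for histone genes with a peak within 1 kb (red), those without (blue) and all other promoters (grey). The octamer stood at 44.1%, 28.6% and 1.61%, and the OTX2 motif of the T form at 11.8%, 21.4% and 5.75%.

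Some histone genes are near-copies of each other, which bears on where reads can be placed. The median share of 50-base stretches of the longest transcript found in another human histone transcript was 0% over the 49 members. More than 50% of the 50-base stretches of the longest transcript recurred in another human histone transcript for 7 members: H4C12 (92.6%), H4C11 (92.1%), H2AC17 (67.8%), H2AC14 (66.3%), H2AC13 (63.5%), H3C12 (62.8%) and H2BC12 (57.2%). All 7 had a peak, and 6 of them lie in the third block. The H3C12 and H2AC17 records overlap on the same strand, so stretches they share can be the same DNA rather than a copy. Any such stretch was present for 21 of 36 members with a peak and for 1 of 13 without. In the promoter windows, 6 of 44 members held a stretch found in another promoter, the highest being H4C11 and H4C12 at 37.5%. Values for these genes are uncertain to the extent that fragments of 1 copy were placed on another, and the part of copied sequence in the peaks was not tested.

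The whole 2 Mb interval held 191 summits, or 95.5 per Mb, against 50.2 per Mb on the rest of chromosome 6 (8470 summits), a ratio of 1.9. It ranked first among 85 bins of 2 Mb on the chromosome, whose median was 50 per Mb and whose next highest was 87.5. It also held the second most protein-coding genes, 66 against a median of 8. The 4 other bins with at least 30 genes had 37.5 to 79.5 summits per Mb. Peaks at the starts of the 49 members made up 36 of the 191 (18.8%), which leaves out the peak at H4C2. With every peak within 1 kb of a protein-coding TSS of the annotation left out, the density was 72 per Mb against 47.1 on the rest.

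**Figure D5:**
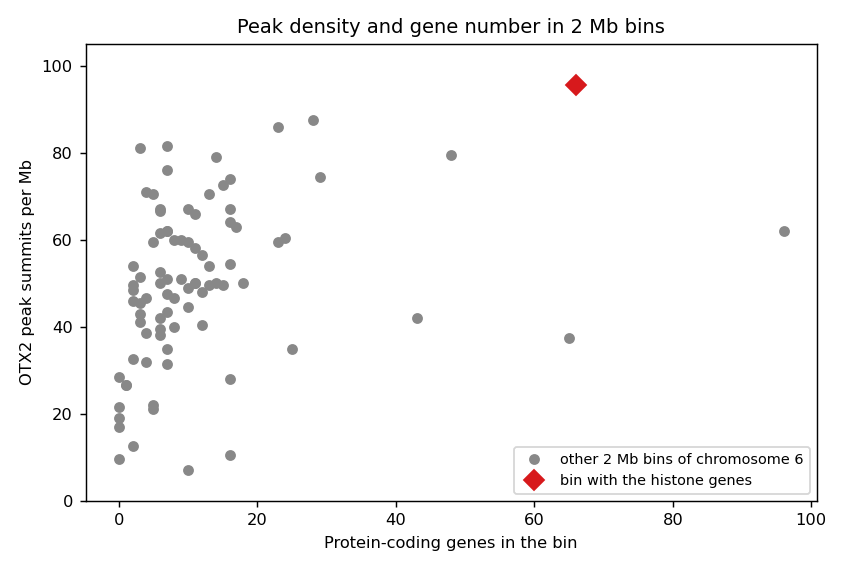
OTX2 peak summits per Mb (y axis) against the number of protein-coding genes (x axis) for the 85 full bins of 2 Mb on chromosome 6 and the incomplete last bin. The bin with the histone genes (red diamond) had 95.5 summits per Mb and 66 genes, and the other bins had 7 to 87.5 summits per Mb.

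Within the interval, peaks at histone genes were longer and somewhat higher than those elsewhere. Their median length was 928 bp, against 484 bp for the other peaks of the interval and 443 bp on the rest of chromosome 6. Median fold was 7.08, 5.83 and 6.23 in the same order, with 59, 49 and 51 fragments. Peaks at histone genes were picked by overlap with a window, which favours long peaks, and the others were not. The part of this choice in the lengths was not tested. For strongest peaks picked by the same window, median length was 1300 bp at histone genes and 595 bp at the other genes of the interval. The 3 strongest peaks of the interval were not at a histone start. The strongest (28.7-fold, 233 fragments, chr6:26144821-26145441) lay 11.2 kb from H1-4 in the first block, and those of 27.3-fold and 26.4-fold lay 224 and 231 kb from the nearest member.

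Of the 17 other protein-coding genes of the interval 11 had a peak (64.7%, interval 41.3 to 82.7). The highest were BTN2A2 (22.6-fold, 152 fragments) and BTN3A1 (18.2-fold, 122), which encode butyrophilins of the immunoglobulin superfamily, and HMGN4 (17.4-fold, 120), a nucleosome-binding protein. ABT1 reached 9.37-fold and ZNF184, a zinc-finger gene, 7.52-fold. A readthrough gene that starts with H2AC7 shared its peak of 7.43-fold. Folds at the 11 genes ran from 2.76 to 22.6, against 3.61 to 23.7 at the histone genes.

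Histone genes outside the interval and the genes that serve them were also counted. The background was the share of 46.9% over the protein-coding genes of the rest of the genome. The symbols of 16 histone genes elsewhere began with H2AC, H2BC, H3C or H4C, and H2AC1, H2BC1 and H2BC12L among them had no peak. Of the 16 genes 13 had a peak (81.2%), with a median of 213 fragments at the summit against 71 at the chromosome 6 members. The median folds were closer, at 8.72 and 7.95. More fragments at a similar fold go with a higher local input, so the fragment numbers are not a like comparison of enrichment. H2BC26 and H2AC25 on chromosome 1 shared the highest, at 18.7-fold with 278 fragments. H2AC20, H2AC21 and H2BC21 shared another of 8.72-fold with 212 fragments. Neighbouring genes with the same peak were each counted here too, so these genes are not independent. The part of copied sequence in these peaks was not tested. Of 14 replacement and variant histone genes 7 had a peak (50%), close to the background. H2AZ1 had the highest fold at 11.5, while H3-3A had a peak of 8.08-fold and H3-3B none within 1 kb. Of 29 genes for histone gene transcription, 3′ end processing and chaperones, 24 had one (82.8%, median 6.34-fold). ZNF473, a component of the U7 processing complex, had 21.1-fold, the chaperone gene NASP 14-fold, SLBP, whose protein binds the stem-loop, 7.28-fold, and NPAT, the activator of histone gene transcription, 3.71-fold. CDK2, CCNE1, CHAF1B, RBBP7 and UBN1 had none.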

How the data were processed

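ChIP-seq was performed on 1 OTX2 ChIP library and 1 input library of D283 tumorspheres. The authors used bowtie2 2.2.4 for mapping (GRCh38) and MACS2 2.1.0.20140616 for narrow peaks (paired-end fragments, duplicates removed, q cutoff 0.05), which left 61259377 of 84980793 ChIP fragments and 22521186 of 32292980 input fragments per the file header. The methods state that blacklisted regions were masked, and how reads with several possible positions were handled is not given in the sources used here. The deposited peak list gives pileup, a signal of fragment coverage at the summit scaled to the smaller library. The deposited fold enrichment is the ratio (pileup + 1) to (local input + 1). A −log10 q-value was also deposited for every peak.

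Fragments were read back from the pileup, which rises in steps of 0.735 per fragment, and local input was computed as pileup plus 1 over fold, minus 1, with a lowest value of 3.98. Genes were the protein-coding records of GENCODE release 44 with the GRCh38 position that the annotation keeps, and a record's 5′ end served as TSS. A peak counted when it overlapped 1 kb on either side. Gene assignment and fragment recovery were tested on simulated data. Promoters came from RefSeq (GRCh38.p14), where 44 of the 49 members were matched. Shares were described with Wilson intervals and fragments with exact Poisson intervals, with Python 3.11.15, pandas 2.3.3 and scipy 1.17.1, and no test over samples could be made.

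The members and the gene lists were chosen with earlier results of these data known. Every member was named, with full values for the 5 highest and 3 lowest folds, the 3 members farthest from a peak and the head-to-head pairs. The H1 and testis genes and the 5 other genes of the interval with the highest folds were named too. Alternatives were the summit in the window, −log10 q of at least 5, fold of at least 5, windows of 500 bp or 5 kb upstream to 2 kb downstream, any transcript start, peaks away from every TSS, and overlap with the interval. RefSeq starts and starts within 1 kb counted as 1 promoter were added after seeing the data.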

Additional observations from a re-analysis of the deposited data

How the results depend on the processing

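The share of histone genes with a peak ran from 65.3% (fold of at least 5) to 77.6% (5 kb upstream to 2 kb downstream) and stayed above that of the other chromosome 6 genes in 8 of 8 settings, as did the median fold in 7 of 7 and the density in 4 of 4. The share of other genes moved from 52.5% to 48.4% with the summit in the window, 47.1% at −log10 q of at least 5, 46.6% within 500 bp, 62% from 5 kb upstream to 2 kb downstream, 59.9% with any transcript start, 31% at a fold of at least 5 and 55.8% at RefSeq starts. With a fold of at least 5 the density was 63.5 per Mb in the interval and 32 on the rest, since fewer peaks were counted. RefSeq starts, and starts within 1 kb counted as 1 promoter (28 of 40 histone promoters, 70.0%), were chosen after seeing the data. No library could be left out. No paired analysis was possible because each condition had 1 library. At this depth a peak below the q cutoff was not detectable, so a gene without a peak is not shown to be unbound.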
